A study of Mus musculus with 24 samples.

Results

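The clustered protocadherins are 57 of the 55414 genes listed in the deposited count table. They were taken as all protein-coding genes whose symbol begins with Pcdha, Pcdhb or Pcdhg, and they comprise 14 Pcdha, 22 Pcdhb and 21 Pcdhg genes. Symbols and gene classes came from the GENCODE M21 mouse annotation, which places all 57 on the plus strand of chromosome 18. A gene with a matching symbol, Pcdhgb8, was left out because that annotation classes it as a polymorphic pseudogene. Pcdha11 is the symbol of 2 members, which are told apart here by their Ensembl identifiers. The one numbered ENSMUSG00000007440 starts where RefSeq (GRCm38.p6) places Pcdha10.

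The libraries came from male mice of about 6 months, born to Ts65Dn dams that had been mated with C57Bl/6J Eicher × C3H/HeSnJ F1 males. Ts65Dn mice are a segmentally trisomic model of Down syndrome, and disomic mice are written 2N. The dams ate chow with 1.1 g/kg (control) or 5.0 g/kg (supplemented) choline chloride through gestation and lactation, and all offspring ate the control chow from weaning. The labels put 6 libraries in the 2N control group, 6 in the Ts65Dn control group, 4 in the 2N supplemented group and 8 in the Ts65Dn supplemented group, whereas the series design text states 6 per group. Each library was made from about 500 neurons of 2 adjoining basal forebrain nuclei, the medial septum and the diagonal band (vertical limb), that had been stained for ChAT, the acetylcholine-synthesising enzyme, and cut out by laser.

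Clustered protocadherins are cell-surface adhesion proteins of neurons that bind copies of the same isoform on a neighbouring membrane. Each Pcdha or Pcdhg gene supplies its own first exon, which encodes the extracellular and transmembrane part, and that exon is spliced to constant exons shared by the whole cluster. Pcdhb genes have no constant exons. In many neurons a subset of the alternate isoforms is chosen by promoter activation in each cell, through CTCF, cohesin and DNA methylation, while the C-type isoforms (Pcdhac1, Pcdhac2, Pcdhgc3, Pcdhgc4 and Pcdhgc5) are regulated differently. The combination carried by a neuron is known for its part in self-avoidance of its branches.

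Library totals ranged from 4688258 to 13443438 expected counts, and between 10530 and 15306 protein-coding genes had at least 1 count. Chat itself was under 1 CPM (counts scaled to a common library size, with TMM factors) in 6 of 24 libraries. The summed level of 9 cholinergic marker genes ranged from 183 to 279 CPM in 2N control, 7.48 to 213 in Ts65Dn control, 236 to 505 in 2N supplemented and 207 to 402 in Ts65Dn supplemented libraries. RNA of other cells was present in every group. The medians of 8 summed astrocyte markers were 2117, 1967, 1677 and 1526 CPM in 2N control, Ts65Dn control, 2N supplemented and Ts65Dn supplemented libraries. Those of 5 summed GABAergic neuron markers were 1024, 795, 1106 and 1088 CPM in the same order. Summed, 8 oligodendrocyte markers came to 716 to 3920 CPM over the Ts65Dn control libraries and to 2886 to 3760 over the 2N control libraries. Likewise, 5 glutamatergic markers reached 817 CPM in 1 Ts65Dn control library against at most 153 in 2N control libraries. The part of these differences in the protocadherin values was not tested. In RNA pooled from many cells, fewer cells expressing a gene and less RNA per cell cannot be told apart.

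The reads of the 3 clusters could not be assigned to single genes equally well. In the annotation, 2860 exonic bases were common to all Pcdha members and 2116 to all Pcdhg members, against 0 for Pcdhb. The median member shared 53.4% of its exonic bases with other members in Pcdha, 44.6% in Pcdhg and 0% in Pcdhb. The read length implied by the deposited gene lengths was 51 bases. Of all 51-base windows of a member's transcripts, a median of 40.0% (range 9.97 to 56.1%) occurred in no other gene for Pcdha, 55.7% (34.8 to 68.2%) for Pcdhg and 95.8% (88.4 to 100%) for Pcdhb.

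The deposited expected counts carried the same order. RSEM, the program that made them, divides a read that matches several genes among them, which leaves counts that are not whole numbers. Among values above 0, 232 of 234 (99.2%) were not whole for Pcdha, 394 of 461 (85.5%) for Pcdhg and 131 of 416 (31.5%) for Pcdhb, with a value called whole within 0.005 of an integer. The share over all other protein-coding genes was 17.0%. No pair of members had identical counts in all libraries. A count of a single Pcdha or Pcdhg gene is therefore in part an estimate of how shared-exon reads were divided, whereas a cluster total does not depend on that division among its own members.

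**Figure D1:**
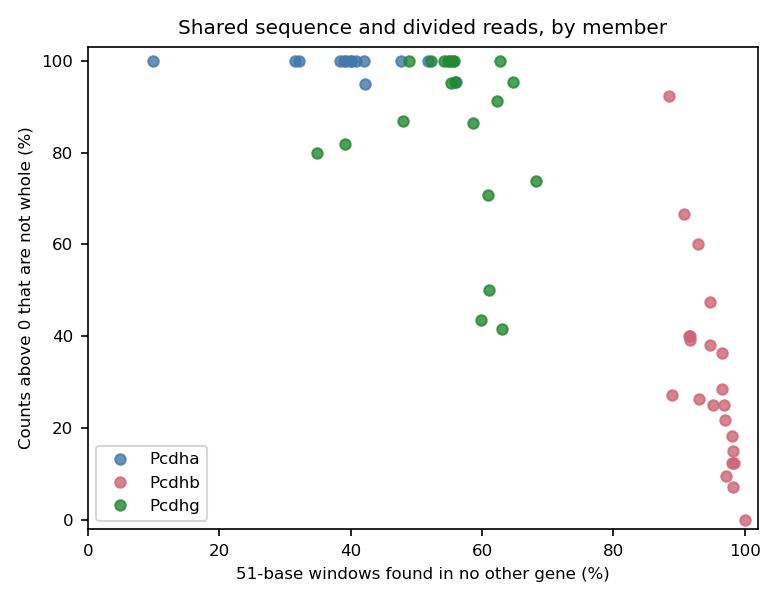
Each point is 1 member: the horizontal axis gives the percentage of its 51-base windows found in no other gene, and the vertical axis the percentage of its counts above 0 that were not whole numbers. Pcdhb members (red) sit at 88.4% of windows or more, and Pcdha members (blue) at 56.1% or less.

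Genes outside the 57 also had sequence windows in common with members. Whether their counts came from shared exons was not tested. Gm38182, a processed transcript with 1383 windows in common with the members, had a median of 286 expected counts per library (0 to 1246). Pcdhgb8, with 2288 windows in common, had a median of 60.5 (0 to 314). Gm42416, with 2761 windows in common, had a median of 21.9 (0 to 318).

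Together the 57 members took 0.0322 to 0.0771% of each library's counts, with a median of 0.0603%. Pcdhg supplied 57.5% ± 7.26 (SD, n = 24) of the members' summed level, Pcdhb 23.0% ± 6.54 and Pcdha 19.5% ± 4.72. The summed CPM ranged from 31.6 to 168 for Pcdha (median 110), from 39.8 to 196 for Pcdhb (median 140) and from 221 to 580 for Pcdhg (median 334).

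Per length of transcript, the C-type genes of the Pcdhg cluster had the highest means of that cluster over the 24 libraries. Mean TPM, a measure of transcripts scaled by length and library, was 16.3 for Pcdhgc5, 10.5 for Pcdhgc4 and 9.19 for Pcdhgc3, while the 18 other Pcdhg genes ranged from 1.03 (Pcdhga1) to 5.53 (Pcdhgb2). That order did not hold in every group. In 2N supplemented libraries Pcdhgb2 averaged 11.9 ± 11.2 TPM (SD, n = 4) and Pcdhgb6 10.15 ± 3.52 TPM. Both means were above those of Pcdhgc5 (6.26 ± 7.36 TPM) and Pcdhgc3 (5.23 ± 2.86 TPM). Pcdhac2 was at 5.70 TPM and Pcdhac1 at 1.64 TPM, beside a median of 1.25 TPM over the Pcdha cluster. Pcdha11 (ENSMUSG00000007440) at 2.04 TPM and Pcdha12 at 1.73 TPM were both above Pcdhac1. The highest Pcdhb genes were Pcdhb17 at 3.21, Pcdhb18 at 2.44, Pcdhb12 at 2.30 and Pcdhb16 at 2.12 TPM, and the cluster's median was 1.70 TPM. Pcdha11 (ENSMUSG00000102206) had a mean of 22.9 TPM, but its RSEM length moved between 625 and 4038 bases from library to library, and that of Pcdhgc5 between 590 and 5777 bases, so their TPM moved with the length as well as with the reads. The 12 non-clustered protocadherins listed, which are separate single genes, ranged widely in mean TPM. The highest were Pcdh9 at 132 TPM and Pcdh10 at 68.2 TPM. The lowest were Pcdh12 at 0.0925, Pcdh20 at 6.68 and Pcdh18 at 7.12 TPM, all below Pcdhgc3.

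A library held between 28 and 53 of the 57 members with at least 1 rounded count, with a median of 48.5. The mean was 50.0 ± 3.10 (SD, n = 6) in 2N control, 44.2 ± 8.91 (n = 6) in Ts65Dn control, 47.5 ± 3.51 (n = 4) in 2N supplemented and 44.5 ± 8.69 (n = 8) in Ts65Dn supplemented libraries. These ranges overlapped. The count of 28 came from Ts65Dn control library 3 and Ts65Dn supplemented library 7, which also had the fewest protein-coding genes detected, 10585 and 10530. When counts were thinned to the smallest library total, the mean over all libraries was 45.5 members, against 46.3 at full depth.

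Detection was most even in Pcdhg, where 15 to 21 of 21 genes had a count, and least even in Pcdha (3 to 13 of 14) and Pcdhb (6 to 21 of 22). Counts above 0 in all 24 libraries were found for 5 members, Pcdhac2, Pcdhb14, Pcdhga9, Pcdhgb6 and Pcdhgc4. Pcdha4 had counts in 1 library and Pcdhb1 in 4. The other 50 members lay between these limits, each at 0 in at least 1 library. A count of 0 allows up to 3 counts, which was 0.215 to 0.848 CPM depending on the library, and this limit covers counting error only, since the reads carry no molecular identifiers that would mark independent molecules.

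**Figure D2:**
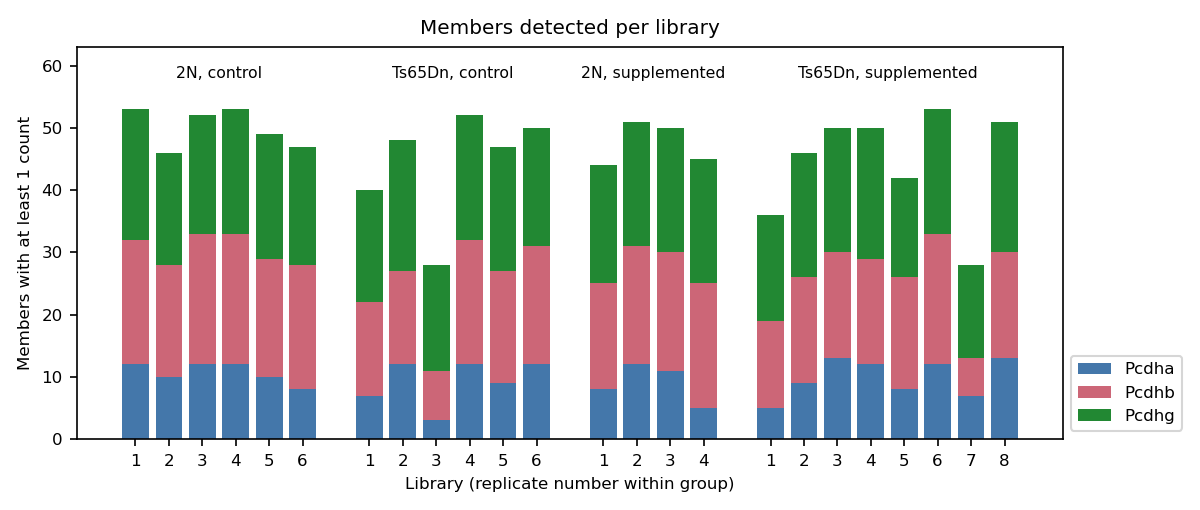
Bars give the number of members with at least 1 rounded count in each of 24 libraries, stacked by cluster, with libraries ordered by group. The shortest bars, at 28, are Ts65Dn control library 3 and Ts65Dn supplemented library 7.

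Which gene led a cluster differed from library to library. Ranking first in at least 1 library were 13 different Pcdhb genes, 10 Pcdhg genes and 6 Pcdha genes. Pcdhac2 led Pcdha in 13 libraries, Pcdhgc5 led Pcdhg in 6 and Pcdhb14 led Pcdhb in 5. These ranks are by CPM, which is not scaled by gene length. Pcdhb14 had the most exonic bases of the Pcdhb genes (8695) and ranked 11 of 22 by mean TPM. The leading gene supplied a median of 31.97% of its cluster's summed CPM in Pcdha, 19.3% in Pcdhb and 17.0% in Pcdhg. Its share reached 81.1% for Pcdhac2 in Ts65Dn control library 3.

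The C-type genes showed the same spread. Their share of the Pcdhg total ranged from 9.44 to 50.5% (median 32.3%), and their share of the Pcdha total from 11.4 to 92.4% (median 35.6%). By group, the share of Pcdhg was 27.7 to 40.4% (mean 34.2%) in 2N control and 9.44 to 50.5% (mean 34.6%) in Ts65Dn control libraries. It was 13.1 to 21.3% (mean 17.8%) in 2N supplemented and 19.9 to 45.1% (mean 31.8%) in Ts65Dn supplemented libraries. For this share the ranges of the 2N control and 2N supplemented groups did not overlap. The C-type share of Pcdha did overlap between them, at 19.1 to 45.4% (mean 33.4%) and 11.4 to 69.0% (mean 36.9%). So did the C-type share of all members, at 18.9 to 33.9% and 11.2 to 29.4%. These shares were not tested, being scores over members, and they rest on how RSEM divided shared reads. Pcdhgc3 was at 0 CPM in Ts65Dn control library 1 and at 18.3 to 50.3 CPM in the other 5 libraries of that group. Pcdhgc4 was at 0.717 CPM in Ts65Dn control library 5 and at 16.9 to 70.9 CPM in the other 5. Pcdhgc5 was at 0 in Ts65Dn supplemented library 5 and at 122 CPM in library 8 of that group. Within a group, therefore, single C-type genes ranged from no counts to among the highest of all members.

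The coefficient of variation across the 24 libraries had a median of 1.13 over members (0.536 for Pcdhgc4 to 4.90 for Pcdha4), beside 1.11 over all genes tested. For the cluster totals it was 0.247 (Pcdha), 0.305 (Pcdhb) and 0.236 (Pcdhg), and for all 57 members summed 0.165. A sum varies less than its parts whenever the parts do not move together, so the smaller values of the totals are given as a description.

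**Figure D3:**
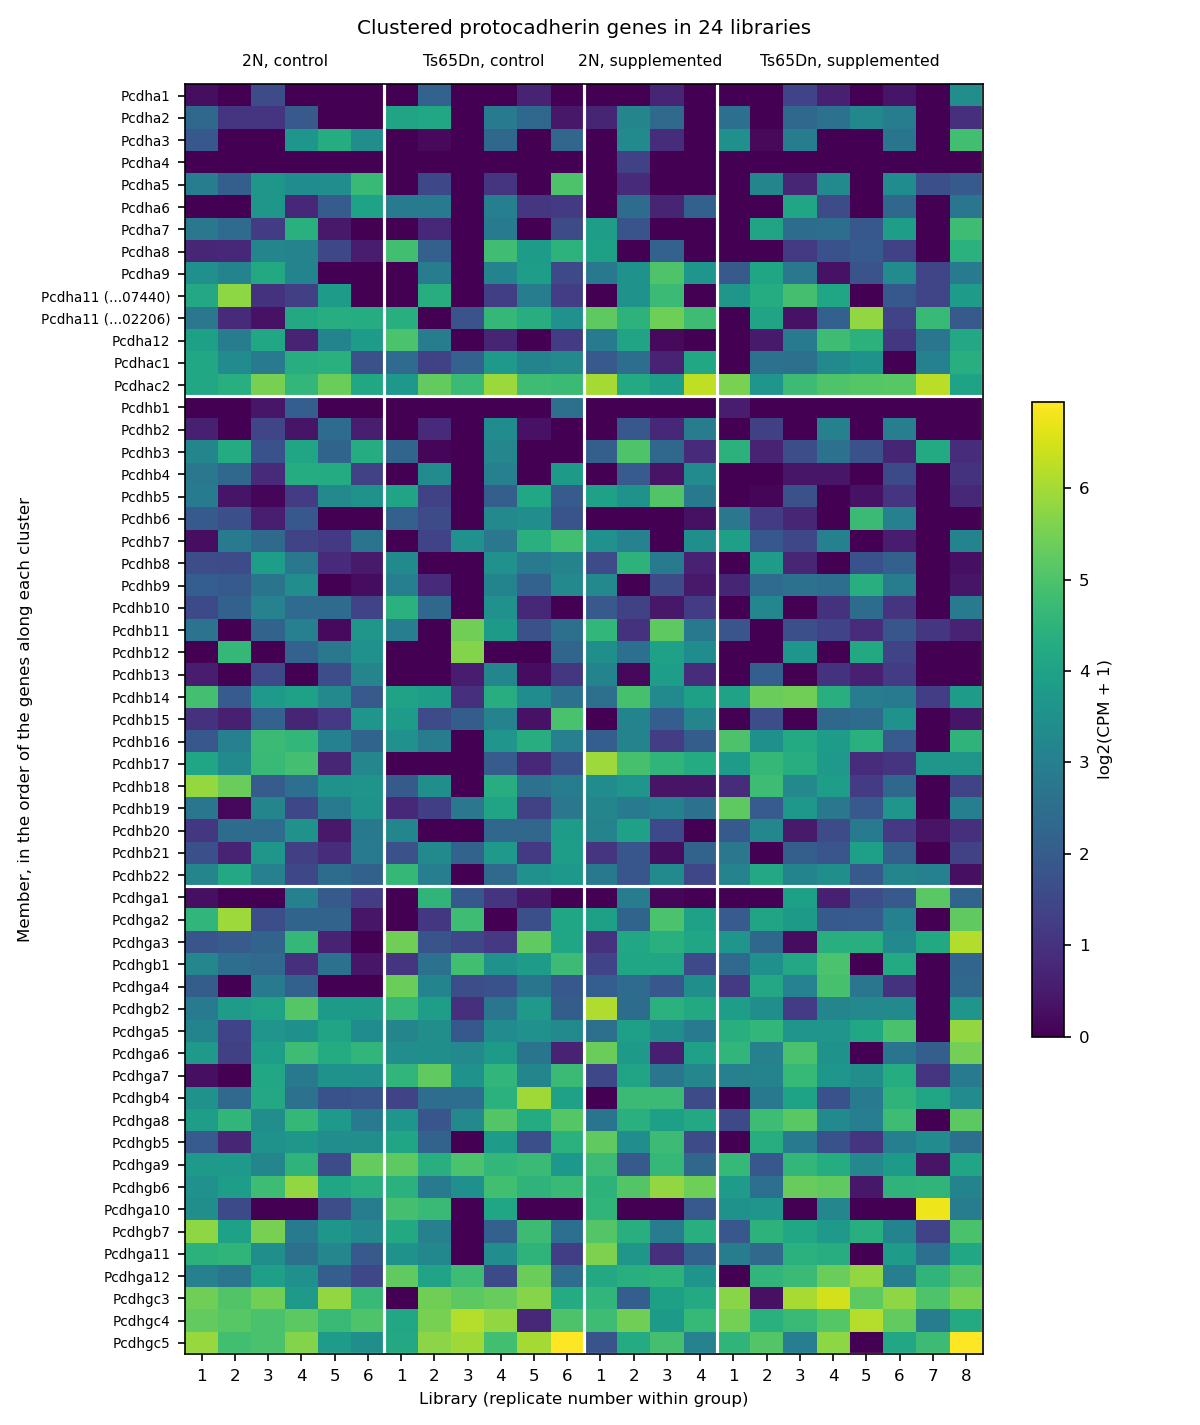
Rows are the 57 members in their order along each cluster, columns are the 24 libraries by group, and colour is log2(CPM + 1). Bright and dark cells alternate between libraries of the same group. Among the C-type rows at the bottom of Pcdha and Pcdhg, Pcdhac2, Pcdhgc3, Pcdhgc4 and Pcdhgc5 are bright in most libraries. Pcdhac1 is dimmer, with a median of 6.82 CPM.

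Summed by cluster, the 4 groups overlapped in every comparison. Pcdha totals averaged 115 ± 13.8 CPM in 2N control, 101.9 ± 40.9 in Ts65Dn control, 127 ± 15.8 in 2N supplemented and 112 ± 29.5 in Ts65Dn supplemented libraries. Pcdhb totals averaged 139 ± 26.0, 133 ± 43.4, 163 ± 40.0 and 113 ± 43.7 CPM in the same order. Pcdhg totals averaged 290 ± 56.1, 365 ± 36.6, 319 ± 63.96 and 357 ± 112 CPM.

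Differences between totals were not tested, because a total is a score over members. On the control diet the Pcdhg total was higher in Ts65Dn by a log2 fold change of 0.33 ± 0.215 (SE), with 6 of 6 Ts65Dn libraries above the 2N mean and overlapping ranges. With the first part of the animal identifier as a term in the fit it was 0.38, and with Pcdhgb8 and Gm38182 counted in, 0.32. On summed TPM it was −0.02, or 0.30 relative to the median of all genes on that scale. On the supplemented diet the Pcdhb total was lower in Ts65Dn by −0.52 ± 0.303, with 1 of 8 Ts65Dn libraries above the 2N mean. With the identifier term it was −0.75, and on summed TPM −1.35, where the median of all genes was −0.45. Mitochondrial ribosomal RNA made up 17.8 to 43.3% of the counts in Ts65Dn supplemented and 18.1 to 22.6% in 2N supplemented libraries, and its part in these values was not tested. The Pcdha totals differed by −0.17 ± 0.284 between genotypes on the control diet and by −0.18 ± 0.299 on the supplemented diet.

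Between diets, the log2 fold changes of the totals were 0.14 ± 0.267 (Pcdha), −0.23 ± 0.271 (Pcdhb) and −0.03 ± 0.201 (Pcdhg) in Ts65Dn. In 2N they were 0.15 ± 0.317, 0.23 ± 0.323 and 0.14 ± 0.240. Each was smaller than its standard error in this fit. The Pcdhb difference in Ts65Dn was −0.60 with the identifier term and −0.73 on summed TPM, where the median of all genes was −0.16.

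**Figure D4:**
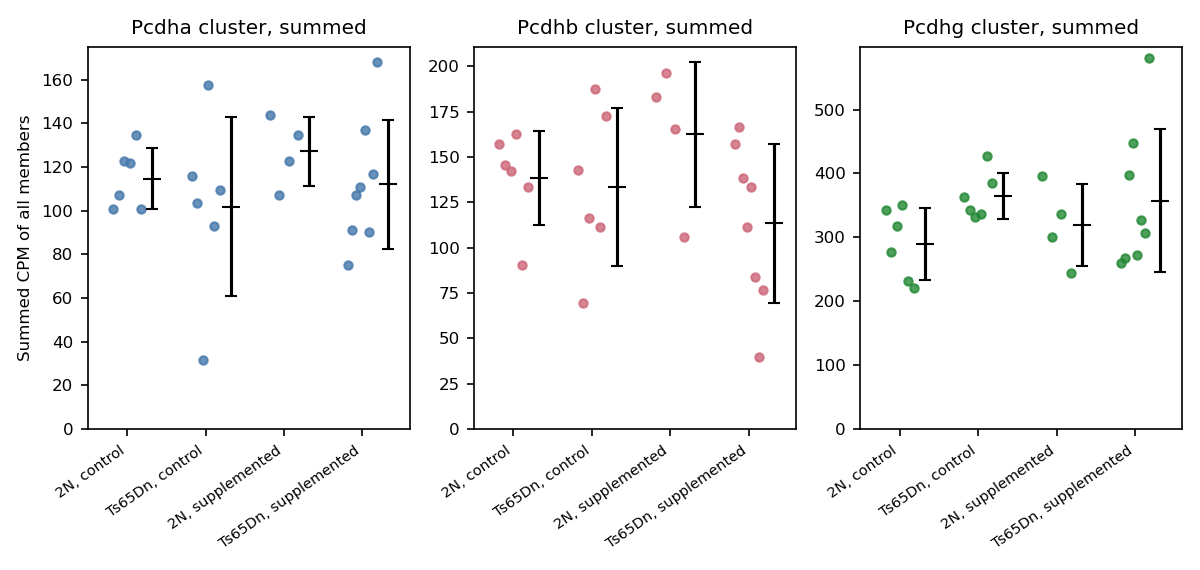
Points are libraries, horizontal marks are group means and bars are 1 SD. The vertical axis is the summed CPM of all members of a cluster, from 0. Group ranges overlap in all 3 clusters, and the highest Pcdhg total (580 CPM) is a Ts65Dn supplemented library.

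Single members were tested with edgeR's quasi-likelihood test on 19967 genes, of which 55 were members (13 Pcdha, 21 Pcdhb and 21 Pcdhg). Pcdha4 and Pcdhb1 had too few counts to be tested. No member passed an adjusted p of 0.05 (Benjamini-Hochberg over all genes tested) in any of the 5 comparisons.

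In Ts65Dn against 2N on the control diet 0 of 55 members passed, where 0.336% of all genes tested did, and 1 member had an unadjusted p under 0.05, where 10.9% of all genes did. The median log2 fold change was −0.52 over Pcdha, 0.39 over Pcdhb and 0.30 over Pcdhg, beside −0.02 over all genes tested. DESeq2's Wald test called 1 member here, where it called 1.67% of all genes to which it gave an adjusted p. Without the filter on low counts edgeR also called 1 member, where it called 0.647% of all genes.

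In supplemented against control diet within Ts65Dn 0 members passed, where 0.13% of all genes did, and 4 had an unadjusted p under 0.05, where 9.62% of all genes did. All 4 were Pcdhb genes (Pcdhb17, Pcdhb5, Pcdhb11 and Pcdhb4). The medians were 0.15 (Pcdha), −0.78 (Pcdhb) and −0.03 (Pcdhg), beside 0.04 over all genes. DESeq2 called 1 member and 1.23% of all genes.

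In supplemented against control diet within 2N 0 members passed, where 0.00501% of all genes did, and 1 had an unadjusted p under 0.05, where 6.92% did. DESeq2 called 0 members and 1.09% of all genes. In Ts65Dn against 2N on the supplemented diet 0 members passed, where 0.18% of all genes did, and 6 had an unadjusted p under 0.05, where 9.49% did. DESeq2 called 2 members and 2.15% of all genes. For the genotype by diet interaction 0 passed, where 0.00501% of all genes did, 3 had an unadjusted p under 0.05, where 8.43% did. DESeq2 called 0 members and 1.38% of all genes. The shares of members at an unadjusted p under 0.05 in edgeR were near or below those of all genes.

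**Figure D5:**
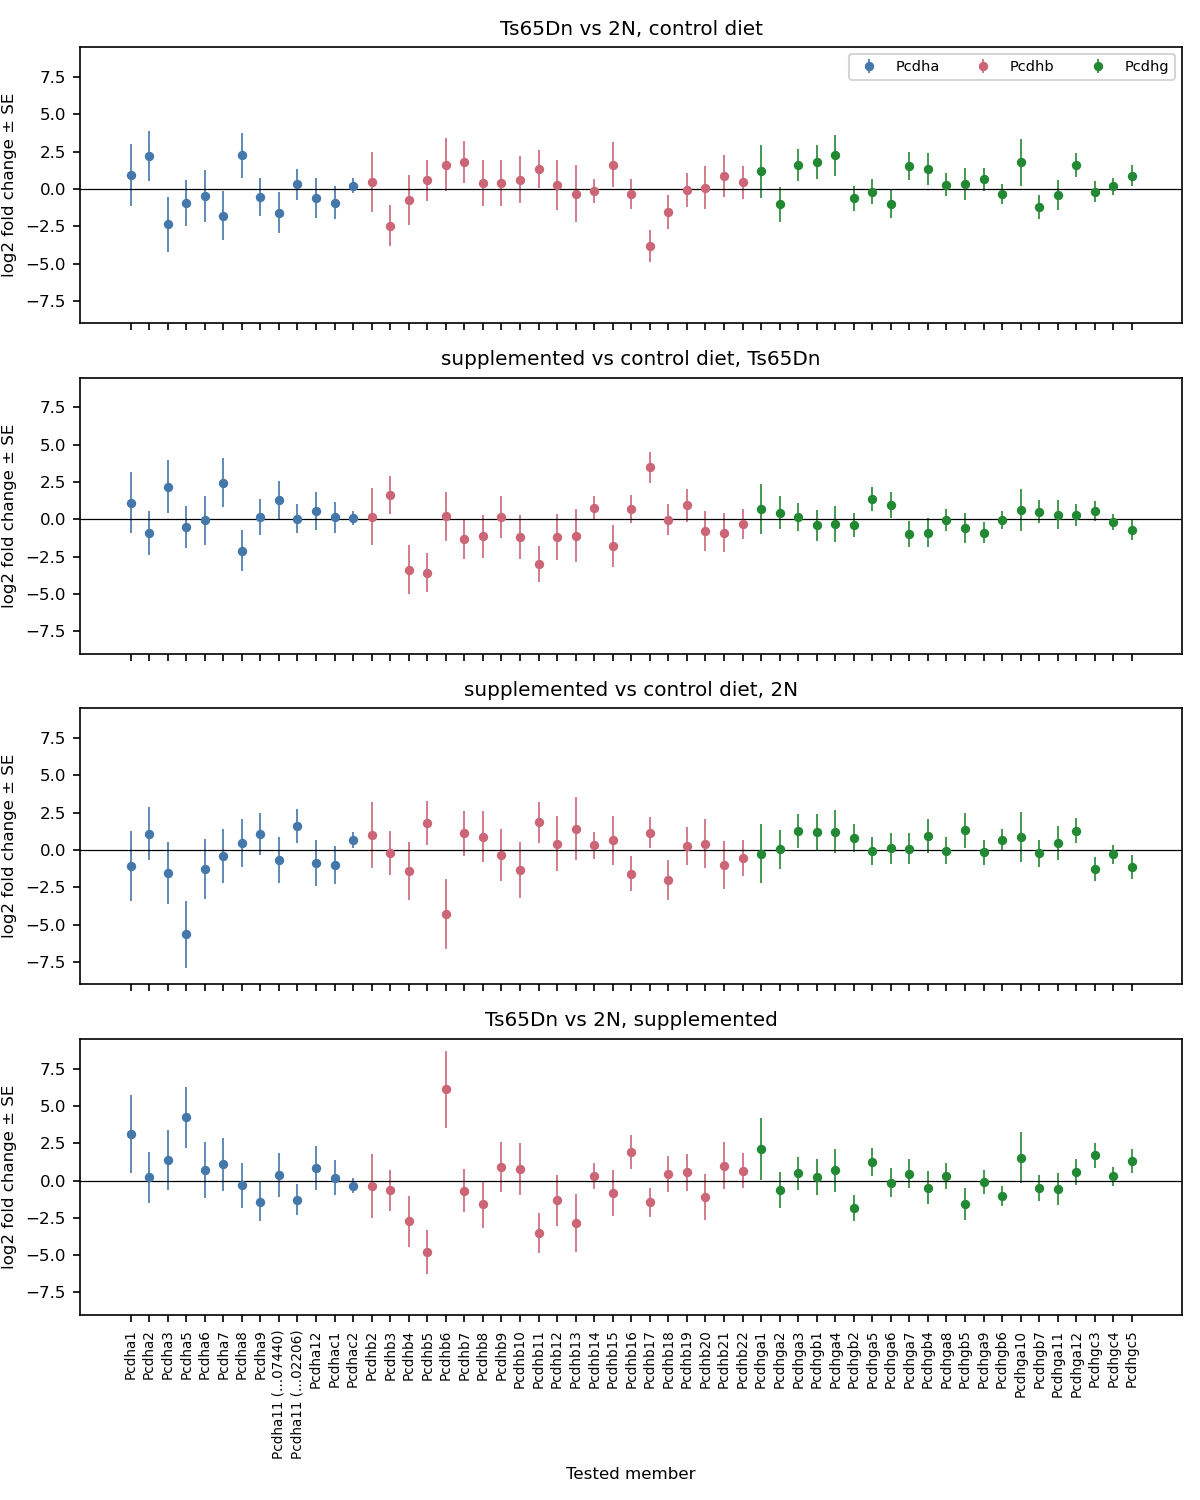
Points are the 55 tested members in order along the clusters, with log2 fold change (± SE) in 4 comparisons. Fitted values of members with almost no counts in a group, such as Pcdhb6 and Pcdha5, depend on the prior count, and no member passed the test in any panel.

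Pcdhb17, a Pcdhb gene with 96.6% of its windows found in no other gene, had the smallest p on the control diet. Its CPM in 2N control libraries was 15.8, 9.03, 24.6, 28.5, 0.669 and 8.31, and in Ts65Dn control libraries 0, 0, 0, 3.03, 0.717 and 2.39. Only 2N control library 5 lay within the Ts65Dn range. The log2 fold change was −3.80 ± 1.07 (SE), with 6 of 6 Ts65Dn libraries below the 2N mean, at an adjusted p of 0.131 (edgeR).

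In the Ts65Dn supplemented libraries Pcdhb17 was at 13.0, 23.5, 18.9, 12.4, 0.856, 1.12, 11.9 and 11.8 CPM, and in 2N supplemented libraries at 59.9, 29.2, 22.4 and 18.2. Of the 8 Ts65Dn supplemented libraries, 7 were above the Ts65Dn control mean of 1.02 CPM, and 2 lay within the range of that group. The log2 fold change with diet in Ts65Dn was 3.49 ± 1.03, at an adjusted p of 0.202. Both comparisons share the Ts65Dn control libraries, so they are not independent.

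The call for Pcdhb17 depended on the tool. DESeq2's Wald test gave adjusted p values of 0.00566 for genotype on the control diet and 0.00759 for diet in Ts65Dn, and edgeR without the filter on low counts gave 0.0316 for the first. With the identifier term the log2 fold changes were −4.003 (adjusted p 0.170) and 4.66 (adjusted p 0.355). Over all alternatives the adjusted p ran from 0.00566 to 0.380 for genotype and from 0.00759 to 0.778 for diet, with the direction kept in each.

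Pcdhb5 had the smallest p between genotypes on the supplemented diet. Its CPM was 14.8, 10.5, 32.2 and 6.03 in 2N supplemented libraries and between 0 and 2.29, with a median of 0.170, in the 8 Ts65Dn supplemented libraries. The ranges did not overlap, which held for 1 of 55 members and for 0.611% of all genes. The log2 fold change was −4.79 ± 1.46 at an adjusted p of 0.245 (edgeR), and DESeq2 gave 0.00774. In Ts65Dn its diet difference was −3.56 ± 1.34 (adjusted p 0.272) and its interaction −5.36 ± 2.00 (adjusted p 0.401).

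Pcdhb11 was lower in Ts65Dn supplemented libraries (mean 1.46 CPM) than in Ts65Dn control (11.6) and 2N supplemented (16.7) libraries, at adjusted p values of 0.333 and 0.413. Its Ts65Dn control mean included 42.7 CPM in library 3. Pcdhb4 averaged 0.462 CPM in Ts65Dn supplemented and 4.84 CPM in Ts65Dn control libraries (adjusted p 0.501). Pcdhb6 had counts in 1 of 4 2N supplemented libraries, 3 in all, and in 5 of 8 Ts65Dn supplemented libraries, with up to 25.5 CPM. That difference had an adjusted p of 0.427 with edgeR and 0.0390 with DESeq2.

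Of the Pcdha genes, Pcdha5 had counts in 6 of 6 2N control libraries (3.29 to 24.6 CPM) and in 1 of 4 2N supplemented libraries (0.791 CPM). The ranges did not overlap, and the log2 fold change was −5.65 ± 2.26 at an adjusted p of 0.566. With the identifier term it was −3.91. Pcdha11 (ENSMUSG00000102206) was at 21.3 to 41.4 CPM in 2N supplemented and 0.264 to 18.99 CPM in 2N control libraries, again without overlap (1.62 on the log2 scale, adjusted p 1.0). These were the 2 of 55 members without overlap in that comparison, where 1.33% of all genes had none. No member was without overlap between genotypes on the control diet (0.646% of all genes) or between diets in Ts65Dn (0.0701%).

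Among Pcdhg genes, Pcdhgc3 averaged 46.5 ± 25.6 CPM in Ts65Dn supplemented and 14.5 ± 8.21 CPM in 2N supplemented libraries, a log2 fold change of 1.68 ± 0.813 (adjusted p 0.508). Pcdhgb2 averaged 7.67 ± 4.68 and 27.7 ± 27.8 CPM in the same groups, a change of −1.85 ± 0.867 (adjusted p 0.486). Its 2N supplemented mean included 68.05 CPM in library 1. With single libraries left out the change ran from −2.21 to −0.90, and with the identifier term it was −0.80. Pcdhga12 averaged 21.1 CPM in Ts65Dn control and 7.04 CPM in 2N control libraries (adjusted p 0.474). The other members among the smallest p values of a comparison (Pcdha7, Pcdhb3, Pcdhb7, Pcdhga4, Pcdhga5, Pcdhga7 and Pcdhgb7) had adjusted p values of 0.558 to 0.885. Pcdhac2, the most abundant Pcdha gene by counts, averaged 27.01 ± 12.5, 31.1 ± 16.0, 42.8 ± 31.8 and 33.9 ± 19.3 CPM in 2N control, Ts65Dn control, 2N supplemented and Ts65Dn supplemented libraries.

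Genes that act on or beside the clusters were read in the same fit. Of 26 regulators of promoter choice and silencing, all tested, 0 passed in any comparison with edgeR, and 0 to 6 per comparison had an unadjusted p under 0.05. The 6 were those of diet in Ts65Dn, where 9.62% of all genes had such a p. DESeq2 called 1 of them, Tet3, in 1 comparison, genotype on the control diet, where it called 1.67% of all genes. Tet3, which oxidises methylated cytosine, had the smallest p: 191 ± 71.3 CPM in Ts65Dn control against 95.9 ± 23.9 CPM in 2N control libraries (log2 fold change 0.99, adjusted p 0.115). It passed without Ts65Dn control library 2 (adjusted p 0.0466). Pds5b, a cohesin-associated protein, averaged 87.4 CPM in Ts65Dn supplemented and 161 CPM in Ts65Dn control libraries (adjusted p 0.242).

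None of 11 tested non-clustered protocadherins, 17 tested cadherins or 13 tested neighbouring genes passed with edgeR. Their counts at an unadjusted p under 0.05 were 1 to 5, 0 to 5 and 0 to 2 per comparison. Such a p was found for 6.92 to 10.9% of all genes, depending on the comparison. In Ts65Dn against 2N on the control diet the counts were 5 of 11 non-clustered protocadherins and 5 of 17 cadherins (10.9% of all genes). For genotype on the supplemented diet they were 3 of 11 and 1 of 17 (9.49% of all genes). For diet in Ts65Dn they were 1 of 11 and 4 of 17 (9.62% of all genes). DESeq2 called Pcdh20 in 1 of the 5 comparisons, Cdh20 in 3 and 0 of the neighbouring genes. Per comparison it called 1.09 to 2.15% of all genes. Pcdh20 averaged 7.47 CPM in 2N supplemented and 36.9 CPM in 2N control libraries (adjusted p 0.566), and Pcdh1 277 CPM in Ts65Dn control and 168 CPM in 2N control libraries (adjusted p 0.201). Cdh20 averaged 2.49 CPM in Ts65Dn control and 22.3 CPM in 2N control libraries (adjusted p 0.189), and passed without Ts65Dn control library 4 (adjusted p 0.0212). Fchsd1, a gene beside the clusters, averaged 33.8 CPM in Ts65Dn control and 13.9 CPM in 2N control libraries (adjusted p 0.404). Cdh1 was at 0 in all 6 Ts65Dn control libraries and averaged 1.27 CPM in Ts65Dn supplemented libraries (adjusted p 0.248). Slc25a2, which lies among the clusters, was at 0 in all 8 Ts65Dn supplemented libraries and averaged 0.753 CPM in Ts65Dn control libraries (adjusted p 0.244).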

How the data were processed

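RNA of laser-captured neurons was made into libraries with a stranded total RNA kit for very small inputs and read as single reads, per the labels. Trimmomatic 0.39, STAR and RSEM are named in the submitters' processing notes. Versions of STAR and RSEM, and the roles of the 2 genome builds named there, were not given in the sources used here, so no coordinates are printed. The authors deposited RSEM expected counts per gene, and TPM, FPKM and gene lengths per sample. The deposited FPKM values were not used.

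Of 55414 identifiers, 52081 matched GENCODE M21. Expected counts were rounded and tested with edgeR 4.0.16 (R 4.3.3) after filterByExpr with a minimum count of 10 and TMM scaling, with all 24 libraries in 1 fit and Benjamini-Hochberg adjustment. Alternatives used DESeq2 1.42.0, limma 3.58.1 on log2(TPM + 1), other filters, the first part of the animal identifier as a factor (its meaning is not given), and libraries left out. The common biological coefficient of variation was 1.40.

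Replicates were numbered in accession order. The labels give 1 animal per library but no litters, so p-values measure only the spread between these animals.

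Members named are the 3 with the smallest p in each direction per comparison, the 4 with the highest mean TPM per cluster and the C-type genes, and in related lists those called or the 2 with the smallest p. The members and lists were chosen with earlier results of these data known. The result of a further list, of intracellular and membrane partners, is not reported here.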

Additional observations from a re-analysis of the deposited data

Results flagged for a closer look

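In 12 of 84 groups of libraries examined, the highest or lowest library stood apart from the others by Dixon's criterion. Chance flags about 1 in 20 groups of independent, normally distributed values. Some groups here held tied values, and the groups shared libraries, so the number flagged cannot be set against that rate.

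Ts65Dn control library 3 stood apart in 3 measures: its Pcdha total was 4.99 on the log2 CPM scale, the leading Pcdha gene held 81.1% of that total, and the leading Pcdhb gene held 42.3% of the Pcdhb total. Ts65Dn supplemented library 7 had 6 Pcdhb members detected. The 2N control library 5 had a Pcdhb total of 6.498 on the log2 CPM scale, the lowest of its group, and 2N supplemented library 1 had 19 Pcdhg members where the other 3 had 20.

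On the log2(CPM + 1) scale, Pcdhgc3 was at 0 in Ts65Dn control library 1 and at 0.31 in Ts65Dn supplemented library 2, and Pcdhgc4 was at 0.78 in Ts65Dn control library 5. Pcdha5 was at 5.01 in Ts65Dn control library 6 and at 0.84 in 2N supplemented library 2, the only library of its group with counts. Pcdhb6 was at 0.30 in 2N supplemented library 4, likewise the only one of its group with counts.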

How the results depend on the processing

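The genes named for their p kept their direction, in the comparisons that named them, in every alternative run, whereas some cluster totals near 0 changed sign. The alternatives gave 116 results, each being a single comparison under a single setting, and many were edgeR fits with a single library left out. The count of members called stayed at 0 in 112 of them. The exceptions were 1 member in Ts65Dn against 2N on the control diet without the low-count filter and with DESeq2's Wald test, 1 in the diet comparison in Ts65Dn with DESeq2, and 2 in Ts65Dn against 2N on the supplemented diet with DESeq2. DESeq2 also called more of all genes, 326, 235, 212, 413 and 268 over the 5 comparisons against 67, 26, 1, 36 and 1 with edgeR. With the identifier term edgeR called 28, 15, 1, 40 and 12, and without single libraries 4 to 127, 12 to 80, 0 to 2, 0 to 72 and 1 to 12.

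Cluster totals moved by more than the spread between libraries only on summed TPM. There Pcdha was −0.63 (genotype, control diet), 0.91 (diet, 2N), −1.78 (genotype, supplemented) and −1.15 (interaction), Pcdhb was −0.73 (diet, Ts65Dn), −1.35 (genotype, supplemented) and −1.0 (interaction), and Pcdhg was −0.02 (genotype, control diet), −0.53 (diet, Ts65Dn), −0.57 (genotype, supplemented) and −0.55 (interaction). The median of all genes on the TPM scale was −0.32 (genotype, control diet) and −0.45 (genotype, supplemented), beside −0.02 and 0.085 in the count fit. For diet in Ts65Dn, diet in 2N and the interaction that median was −0.16, −0.035 and −0.13, beside 0.042, −0.062 and 0.128. Much of the summed Pcdha TPM was Pcdha11 (ENSMUSG00000102206), whose RSEM length moved between libraries. It averaged 16.8 of 41.35 TPM in 2N control and 54.0 of 76.0 TPM in 2N supplemented libraries. In Ts65Dn it averaged 15.7 of 33.0 TPM in control and 17.3 of 31.95 TPM in supplemented libraries. The cause was not tested. At a minimum of 10 counts, 43.7 members were detected per 2N control, 42.8 per 2N supplemented, 40.5 per Ts65Dn control and 37.25 per Ts65Dn supplemented library. With 0.05 as the tolerance, values that were not whole came to 89.7% (Pcdha), 26.9% (Pcdhb), 76.8% (Pcdhg) and 14.1% (other protein-coding genes).

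A further 2 alternatives were chosen after seeing the data: leaving out Ts65Dn supplemented libraries 2 and 5, whose columns stand among the supplemented 2N ones in the deposited table, and counting Pcdhgb8 and Gm38182 in the Pcdhg total. The first changed no member's call but gave 93, 69, 2, 150 and 24 calls over all genes, and the second gave Pcdhg totals within the spread between libraries. No paired analysis was possible because replicate numbers follow accession order and the labels pair no libraries.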
